A study of Mus musculus with 16 samples.

Results

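The levels of 46 cell cycle and proliferation genes were followed here in CD11b+ cells from mouse brain. The genes were chosen by symbol from a list of S phase and mitosis genes. All 46 were present among the 55385 genes of the count table, and all 46 were among the 14513 genes that passed the filter on low counts. By the phase in which each gene is known to act, 4 were assigned to the G1/S transition, 15 to DNA replication and 25 to G2 and mitosis. Stmn1 and Hmgb2 were kept apart, because both are also expressed in cells that do not divide.

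A dividing cell switches its genes on in a fixed order. D and E type cyclins and the E2F transcription factors carry it from G1 into S phase, the replication genes then copy the DNA, and the genes of G2 and mitosis build the spindle, attach the chromosomes and split the cell. Microglia, the resident macrophages of the brain, divide rarely in the healthy adult brain and are known to multiply around amyloid beta (Aβ) plaques.

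RNA came from bead-sorted CD11b+ brain cells of female mice aged 20 wk, which the labels call microglia, with 4 libraries in each of 4 genotypes and no treatment. The genotypes came from crosses of 5xFAD, Card9-/- and C57BL/6J mice. WT mice carried neither change, and Card9-/- mice lacked the immune signaling adaptor CARD9 in all cells, not in microglia alone. The 5xFAD mice carried human transgenes with mutations of familial Alzheimer's disease, which in this line are expressed in neurons, and Card9-/-5xFAD mice carried both changes. The study set out to learn whether CARD9 shapes the response of microglia to Aβ.

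Depth, cell makeup and genotype were examined first. The libraries held 2970148 to 19333325 counted reads (median 7944300), and no library was a copy of another of its genotype. All 7 microglia markers (Cx3cr1, P2ry12, Tmem119, Csf1r, Aif1, Itgam and Sall1) were counted in every library, with a summed level of 10271 to 23704 CPM, the unit of level used here, in which the reads of a gene are scaled to a fixed library size. Card9 was counted at 13.6 to 51.3 CPM in WT, 16.7 to 34.8 CPM in Card9-/-, 15.6 to 33.5 CPM in 5xFAD and 9.73 to 33.7 CPM in Card9-/-5xFAD. A count over the whole gene includes reads from any exons that a deletion leaves, so it does not check the genotypes, which were taken from the labels. The sum of 7 neutrophil markers, S100a8, S100a9, Ly6g, Retnlg, Mmp8, Camp and Ngp, set 3 libraries apart. It stood at 3596 CPM in WT replicate 1, at 6278 CPM in Card9-/- replicate 4 and at 5966 CPM in Card9-/-5xFAD replicate 4, against 488 to 2224 CPM in the other 13. S100a8, S100a9 and Retnlg carried the difference, each being highest of its genotype in these 3 libraries. Other markers did not all follow. Ngp and Mmp8 were lowest of their genotype in WT replicate 1 (138 and 11.8 CPM) and in Card9-/- replicate 4 (149 and 19.3 CPM). Ly6g was also lowest in Card9-/- replicate 4 (3.60 CPM), while Ngp was highest in Card9-/-5xFAD replicate 4 (238 CPM). Markers of other cells differed there too. In the order given, the 3 libraries were highest of their genotype for the border macrophage marker Pf4 (759, 1053 and 1070 CPM) and the microglia marker Aif1 (3300, 4365 and 6034 CPM). They were lowest for the microglia markers P2ry12 and Tmem119. Neutrophil-rich below thus means a high sum, not a rise of every neutrophil marker or of neutrophil markers alone. The Card9-/- and Card9-/-5xFAD libraries among the 3 were also the shallowest. The counts of called genes in the transgene comparisons are also given without these 3 libraries, a fit chosen after the data were seen.

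The genes differed widely in level. Per kilobase of exon and averaged over all 16 libraries, Stmn1 stood at 77.1 CPM, Hmgb2 at 71.7 CPM, Pcna at 61.4 CPM and Ccnd1 at 22.9 CPM. Mcm3 followed at 14.0 CPM per kilobase. Without the 3 neutrophil-rich libraries, Hmgb2 stood at 43.5 CPM per kilobase and Pcna at 65.7, so Hmgb2 ranked below Pcna there. Over all 16, Mki67 stood at 1.18 CPM per kilobase, Cdc6 at 0.289 and Foxm1 at 0.300. The least counted gene was Ccne1, with 213 reads in all 16 libraries together, and Hmgb2 had 20414. The 25 genes of G2 and mitosis together took 604 to 2894 reads per library, and Cdk1 alone took 12 to 437.

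Summed levels set the genes of G2 and mitosis apart from those of the earlier phases. The summed level of the 25 mitotic genes was 122, 175, 172 and 153 CPM in WT (156 ± 24.5, SD, n = 4) and 141, 120, 145 and 198 CPM in Card9-/- (151 ± 33.1). It was 414, 290, 301 and 223 CPM in 5xFAD (307 ± 79.6) and 219, 245, 206 and 286 CPM in Card9-/-5xFAD (239 ± 35.4). By this sum every library with transgenes was above every library without them, by a narrow margin between Card9-/- replicate 4 and Card9-/-5xFAD replicate 3. The mean log2 CPM of the same 25 genes overlapped, with 1.83 to 2.56 without and 2.49 to 3.28 with transgenes. In that measure Card9-/-5xFAD replicate 3 (2.49) lay below WT replicate 2 (2.56) and WT replicate 3 (2.53). The complete separation thus held for the sum and not for the mean log2 level. The sums of the 15 replication genes overlapped, with 255 to 430 CPM without and 274 to 498 CPM with transgenes, as did those of the 4 G1/S genes, with 72.7 to 182 CPM and 46.1 to 187 CPM. A sum follows its highest genes. Outside the 3 neutrophil-rich libraries, Ccnd1 stood at 63.9 to 169 CPM without and 54.7 to 173 CPM with transgenes, most of the G1/S sum. Pcna, a large part of the replication sum, stood there at 65.7 to 148 CPM and 147 to 242 CPM. The G1/S sum thus describes Ccnd1 more than the phase. In a bulk sample, a change in the number of dividing cells and a change in the RNA of these genes per cell cannot be told apart.

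**Figure D1:**
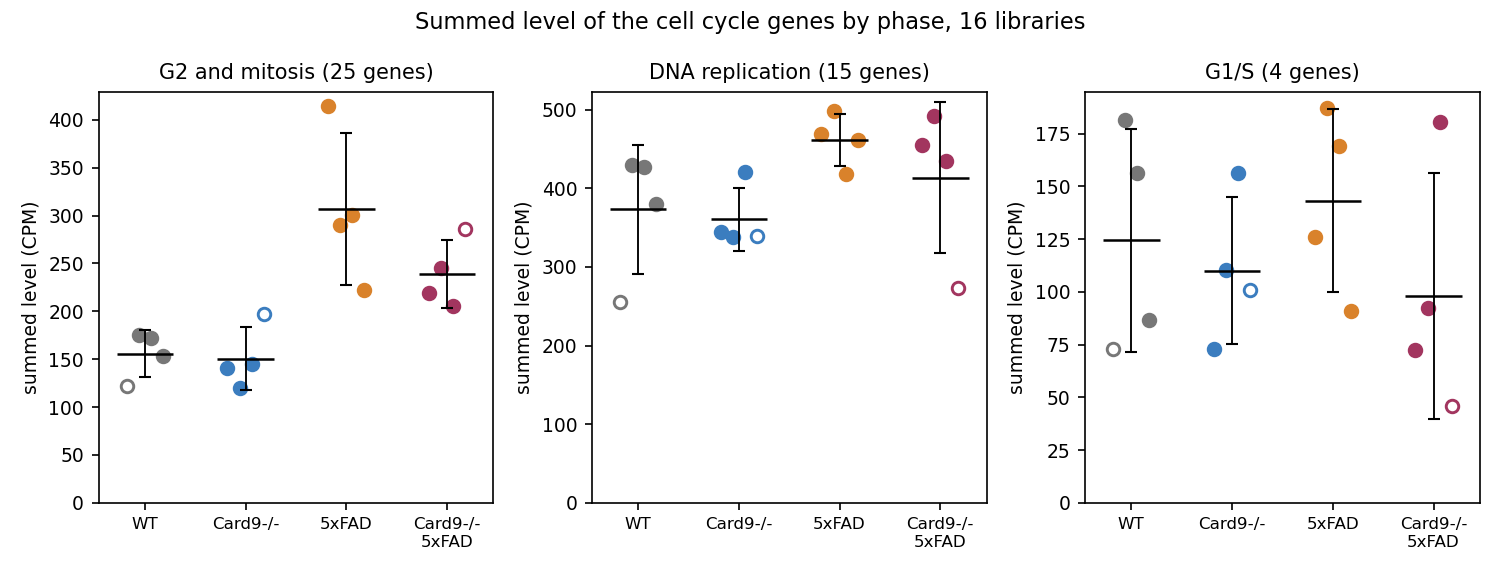
Summed level of the genes of each phase (CPM) in each of the 16 libraries by genotype, with the mean and SD of each genotype in black. Open circles mark the 3 libraries with the highest neutrophil sum. The 8 libraries with transgenes lie between 206 and 414 CPM for the 25 mitotic genes, above the 120 to 198 CPM of the other 8, while the panels for replication and G1/S overlap.

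In edgeR, 3 comparisons asked how the transgenes changed each gene, namely that of 5xFAD with WT, that of Card9-/-5xFAD with Card9-/-, and the average of both changes. The first and second share no library, and the third joins them. A gene was called at a false discovery rate (FDR) under 0.1, adjusted over all genes tested. Called genes were higher in each case. They numbered 4 of 46 in 5xFAD against WT (Birc5, Cenpe, Cdk1 and Ube2c), where 1.57% of all genes tested were called higher. In Card9-/-5xFAD against Card9-/- they numbered 4 (Cenpe, Cdk1, Birc5 and Stmn1), against 1.49% of all genes. The average called 8 (Birc5, Cenpe, Cdk1, Ube2c, Stmn1, Tyms, Ccnb2 and Pcna), or 5 of the 25 mitotic genes, 2 of the 15 replication genes, and Stmn1. The share of all genes called higher by the average was 5.62%.

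Within each Card9 genotype, the deviations of libraries of the same replicate number correlated positively, as given with the processing. Correlations between libraries of unlike number were not computed, so this does not show that the libraries were paired. The same comparisons were also fitted in edgeR with these pairs as blocks, a fit chosen after the data were seen. With this pairing, 13 members were called in 5xFAD against WT, all higher, against 8.93% of all genes called higher. These were the 4 above with Ccnb2, Ccnb1, Aurkb, Cdca3, Cdca8, Top2a, Tyms, Pcna and Stmn1. In Card9-/-5xFAD against Card9-/- 7 were called, the 4 above with Ube2c, Ccnb2 and Tyms, all higher, against 11.2% of all genes. The average called 21, all higher, against 18.1% of all genes. They were the 8 above, 11 more mitotic genes (Aurka, Aurkb, Bub1, Ccnb1, Cdca3, Cdca8, Kif11, Mki67, Prc1, Top2a and Tpx2), the replication gene Gins2 and the G1/S gene Ccne1. The member counts thus depended on whether the fit paired the libraries, and the values below are without pairing unless stated.

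Without pairing, the calls within one Card9 genotype leaned on single libraries. The number called in 5xFAD against WT came to 0 without 5xFAD replicate 1, to 1 without WT replicate 4, to 2 without WT replicate 1, WT replicate 2, 5xFAD replicate 2 or 5xFAD replicate 3, and to 6 without 5xFAD replicate 4. In Card9-/-5xFAD against Card9-/- it came to 0 without Card9-/- replicate 2, 5xFAD replicate 2, 5xFAD replicate 3, Card9-/-5xFAD replicate 2 or Card9-/-5xFAD replicate 3. It came to 1 without WT replicate 3, Card9-/- replicate 1, Card9-/-5xFAD replicate 1 or Card9-/-5xFAD replicate 4, to 2 without Card9-/- replicate 3 and to 6 without Card9-/- replicate 4. In the average, 7 to 15 genes were called, and Birc5, Cenpe, Cdk1, Ube2c, Stmn1, Tyms and Ccnb2 passed in all 16 fits that left out 1 library. The number came to 15 without Card9-/- replicate 4 and to 13 without 5xFAD replicate 4.

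The size of the changes differed by phase. Over the 25 mitotic genes the median log2 change of the average was 0.62, and all 25 changes were above 0, from 0.00015 for Bub1b to 1.71 for Cdk1, while 23 or 24 were above 0 in some other fits, 23 of them with the paired libraries as blocks. Over the 15 replication genes the median was 0.0016 with 8 of 15 above 0, and over the 4 G1/S genes it was 0.24 with 2 above 0. The median over all 14513 genes tested was -0.15. With the size factors of DESeq2 in place of those of edgeR it was -0.082, and the medians of the mitotic and replication genes were 0.68 and 0.086. The sign of the replication median therefore turned on the setting, since it was -0.205 without the 3 neutrophil-rich libraries, and the mitotic median was 0.64 there.

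**Figure D2:**
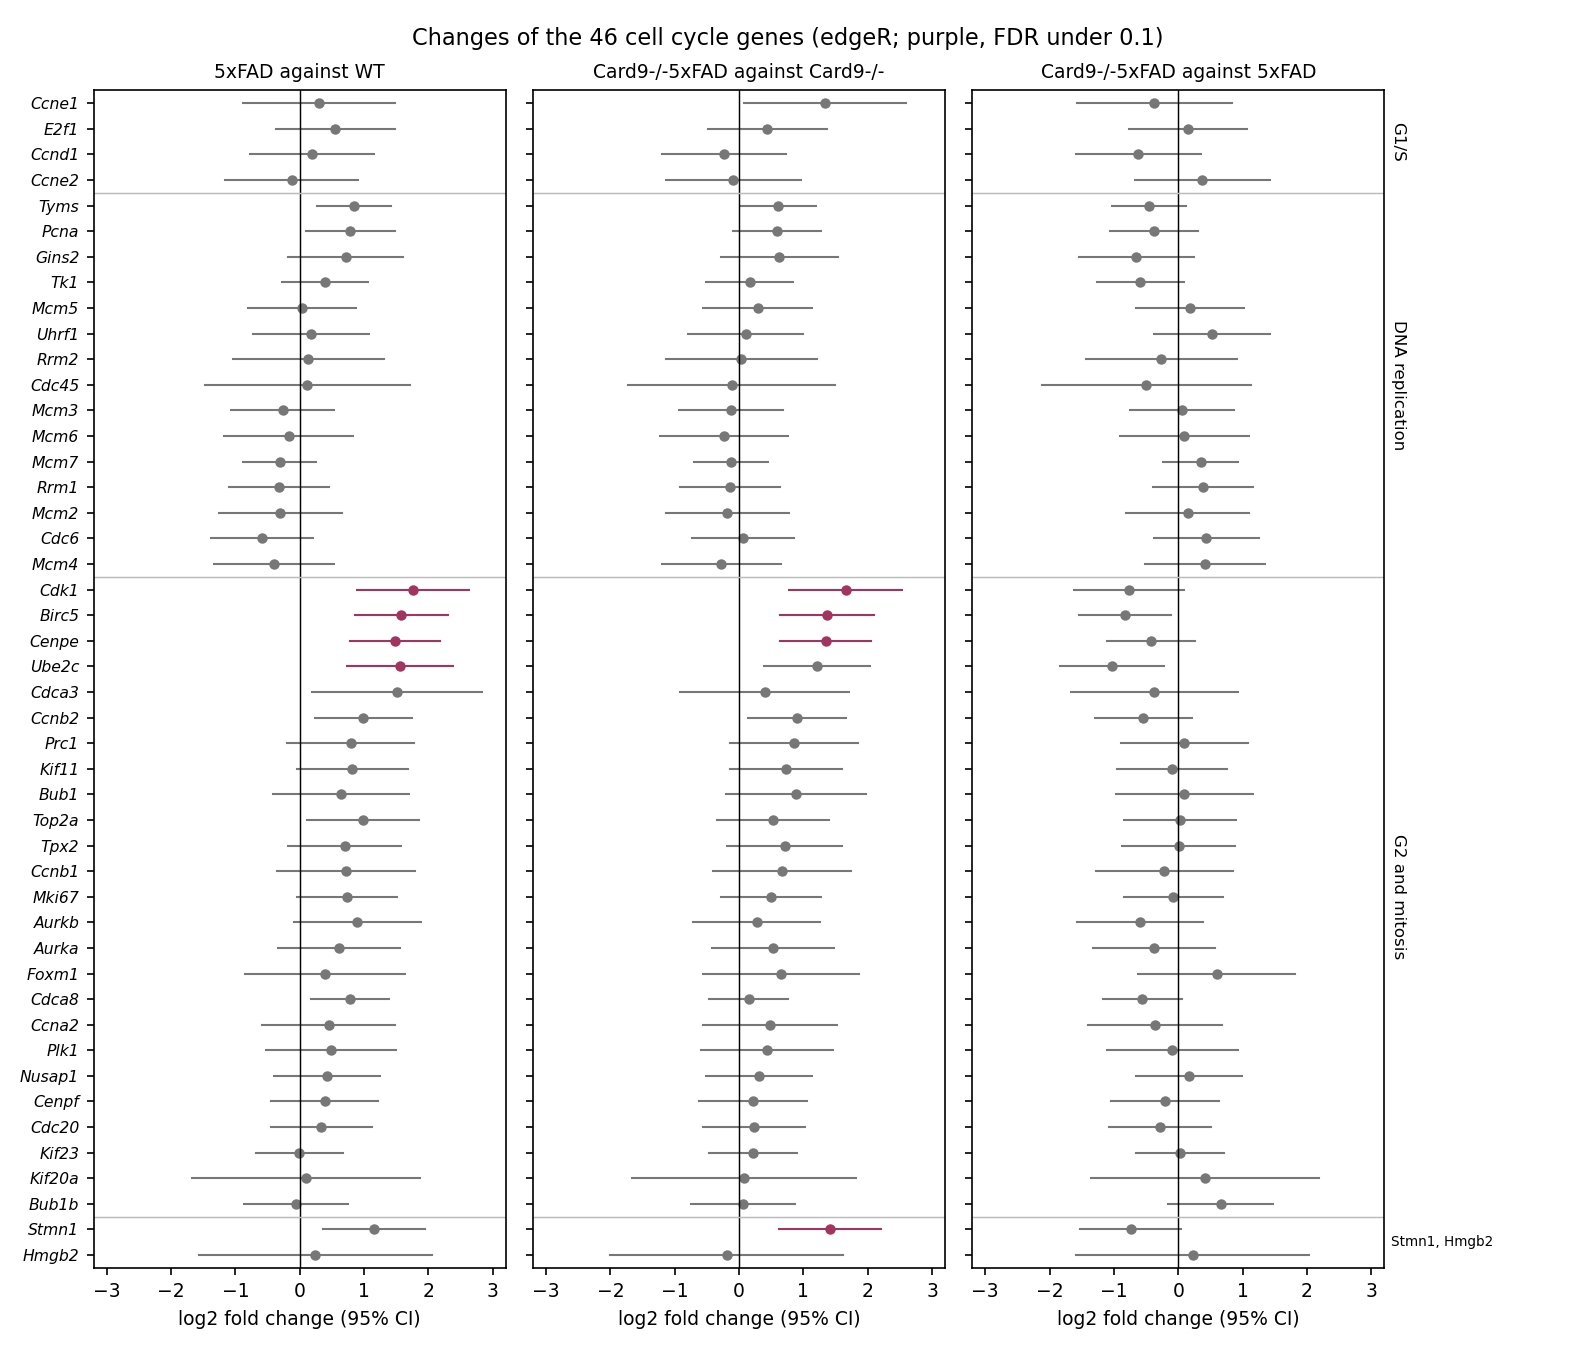
Log2 fold change of each of the 46 genes (points) with its 95% confidence interval (lines) in both transgene comparisons and in Card9-/-5xFAD against 5xFAD, from edgeR without pairing, with genes grouped by phase and ordered by the average transgene change. Purple marks FDR under 0.1, reached by 4 genes in each of the left and middle panels and by 0 in the right panel, and most mitotic genes lie to the right of 0 in the left and middle panels.

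Cdk1 had the largest average change of the 46 genes, and its partner Ccnb2 was also called. Cdk1, the kinase that drives the cell into mitosis, stood at 7.75, 20.97, 16.3 and 13.3 CPM in WT and at 11.4, 7.61, 13.3 and 3.93 CPM in Card9-/-. It stood at 66.3, 46.1, 51.8 and 34.2 CPM in 5xFAD and at 30.0, 31.7, 41.0 and 12.8 CPM in Card9-/-5xFAD. All 5xFAD libraries were above all WT libraries, and 1 Card9-/-5xFAD library, replicate 4, lay among those without transgenes. Cdk1 was 3.39-fold higher in 5xFAD than in WT (95% CI 1.85 to 6.21, edgeR FDR 0.0424) and 3.15-fold higher in Card9-/-5xFAD than in Card9-/- (1.72 to 5.79, edgeR FDR 0.0686), and 3.27-fold in the average (2.13 to 5.02, edgeR FDR 0.00185). Ccnb2, a cyclin that pairs with it, stood at 5.99, 10.1, 11.9 and 8.67 CPM in WT, 4.32, 4.01, 6.76 and 12.4 CPM in Card9-/-, 19.1, 21.1, 21.8 and 11.0 CPM in 5xFAD and 13.7, 12.1, 11.8 and 12.4 CPM in Card9-/-5xFAD. Libraries with and without transgenes overlapped through WT replicate 3 and Card9-/- replicate 4, and only the average passed, at 1.92-fold (1.33 to 2.79, edgeR FDR 0.0349). Ccnb2 passed in both Card9 genotypes as well with the pairs as blocks (edgeR FDR 0.0611 and 0.0390). Ccnb1, the other B cyclin, had an average log2 change of 0.70 ± 0.36 (SE, FDR 0.259) and was not called.

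Birc5 and Cenpe, which act where chromosomes meet the spindle, separated the libraries completely. Birc5 encodes survivin, a subunit of the chromosomal passenger complex. It stood at 8.45, 9.59, 8.94 and 7.60 CPM in WT, 7.81, 3.64, 6.64 and 4.25 CPM in Card9-/-, 43.7, 21.2, 25.2 and 13.5 CPM in 5xFAD and 11.8, 14.8, 14.9 and 16.8 CPM in Card9-/-5xFAD. Birc5 was 2.99-fold higher in 5xFAD than in WT (95% CI 1.81 to 4.94, edgeR FDR 0.0256) and 2.59-fold higher in Card9-/-5xFAD than in Card9-/- (1.56 to 4.30, edgeR FDR 0.0710). Cenpe, a kinesin motor of the kinetochore, stood at 4.40, 4.88, 5.07 and 5.24 CPM in WT, 4.56, 3.60, 5.27 and 2.29 CPM in Card9-/-, 21.2, 13.02, 12.6 and 8.04 CPM in 5xFAD and 8.19, 8.79, 11.3 and 12.8 CPM in Card9-/-5xFAD. It was 2.79-fold (1.72 to 4.54, edgeR FDR 0.0316) and 2.55-fold higher (1.56 to 4.15, edgeR FDR 0.0651) in the same comparisons. In the average, Birc5 was 2.78-fold (1.95 to 3.98, edgeR FDR 0.00132) and Cenpe 2.67-fold higher (1.89 to 3.76, edgeR FDR 0.0014). For both genes the lowest of the 8 transgene libraries was above the highest of the other 8, as for 1.19% of all genes tested.

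Within each Card9 genotype the groups separated for more genes. In 5xFAD against WT, 8 of the 46 did not overlap and were higher (Cdk1, Birc5, Cdca8, Cenpe, Prc1, Cdca3, Mki67 and Top2a), against 4.35% of all genes. In Card9-/-5xFAD against Card9-/- these were 5 (Tyms, Birc5, Cenpe, Ube2c and Stmn1), against 3.53% of all genes. No member was lower without overlap in either comparison.

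Ube2c, the ubiquitin conjugating enzyme that serves the anaphase promoting complex, stood at 5.99, 7.45, 10.9 and 6.74 CPM in WT, 5.76, 3.72, 6.76 and 2.94 CPM in Card9-/-, 40.2, 19.7, 21.4 and 10.8 CPM in 5xFAD and 9.67, 10.8, 15.6 and 8.81 CPM in Card9-/-5xFAD. The 5xFAD libraries overlapped WT by a single pair, 10.8 against 10.9 CPM. The gene was 2.95-fold higher in 5xFAD than in WT (95% CI 1.67 to 5.22, edgeR FDR 0.0588), and 2.31-fold in Card9-/-5xFAD against Card9-/- (1.30 to 4.11, FDR 0.178), where it was not called. It was called there with the pairs as blocks, with a log2 change of 1.24 ± 0.32 (edgeR FDR 0.0243). The average was 2.61-fold (1.74 to 3.92, edgeR FDR 0.00598). Of its exon bases, 22.8% lie opposite exons of Tnnc2, and the strand setting of the counting is not given in the sources used here. Cdc20, the activator of the same complex, had an average log2 change of 0.28 ± 0.26 (FDR 0.553).

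**Figure D3:**
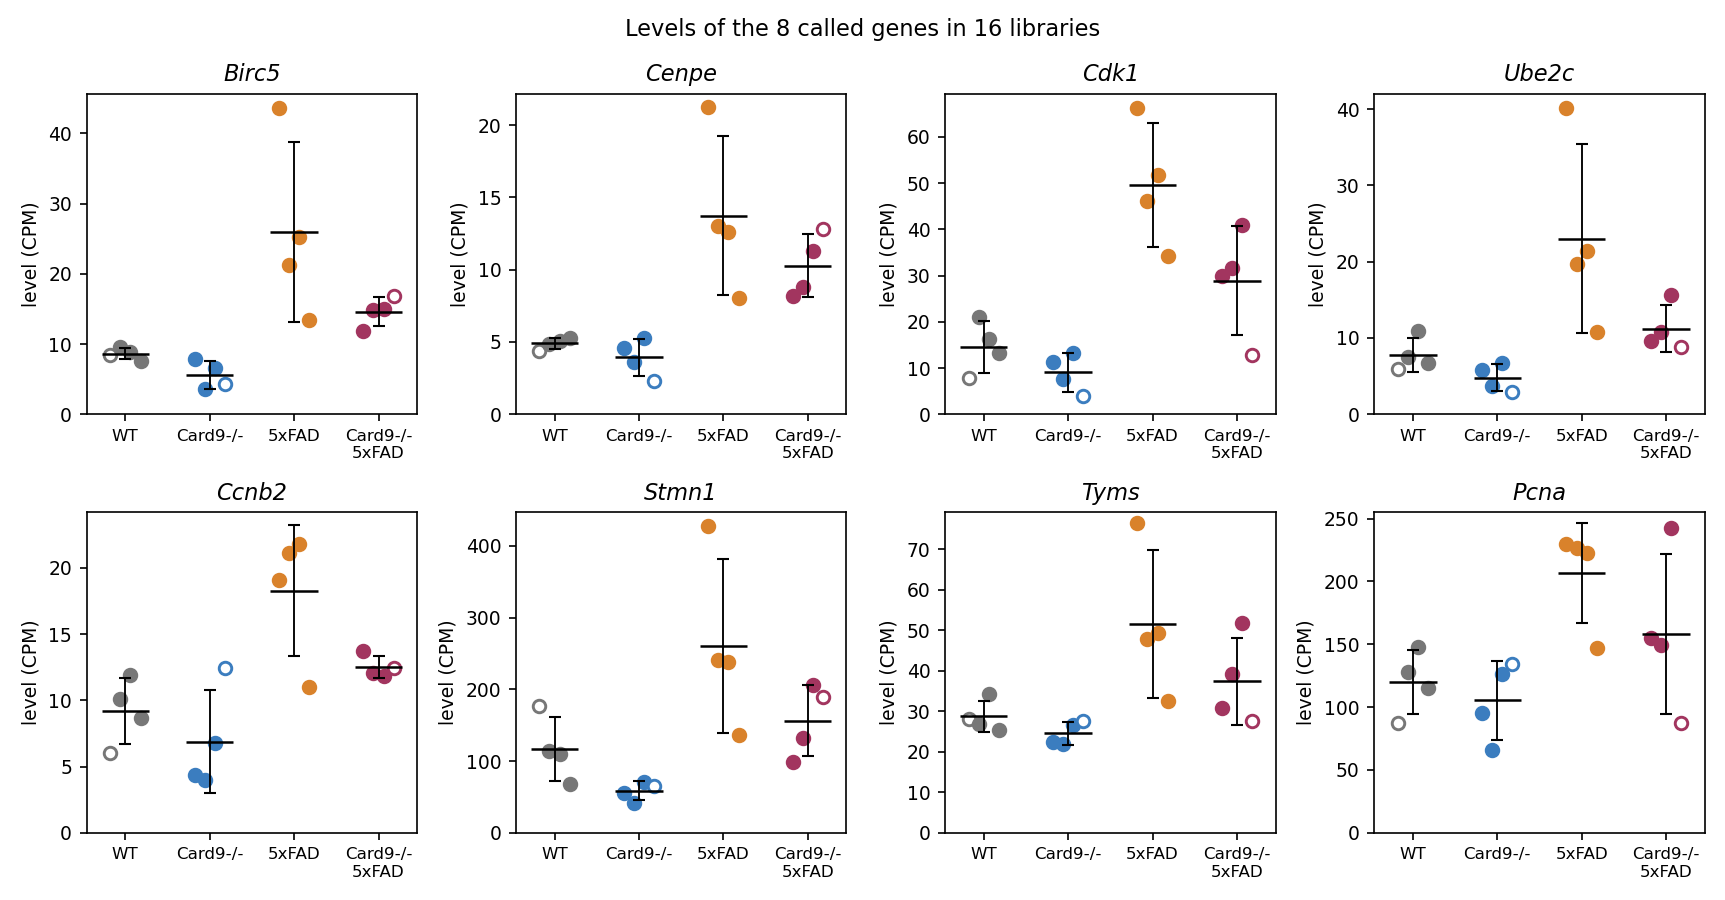
Level (CPM) of the 8 genes called in the average transgene comparison, in each of the 16 libraries by genotype, with the mean and SD of each genotype in black. Open circles mark the 3 libraries with the highest neutrophil sum. Birc5 and Cenpe show no overlap between the 8 libraries with transgenes and the 8 without, and 5xFAD replicate 1 is the highest library for Birc5, Cenpe, Cdk1, Ube2c, Stmn1 and Tyms.

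Promoter sequence was examined because most genes of G2 and mitosis are known to share a promoter layout, a cell cycle genes homology region (CHR) near the start of transcription with CCAAT boxes upstream, whereas G1/S and replication genes often carry E2F sites. Windows of 300 bases, from 250 before to 50 after the annotated start, were taken from a table of RefSeq promoters (GRCm38.p6), in which 36 of the 46 genes were matched, and the other 10 were not analysed here. The CHR was searched as TTTGAA or TTCGAA, the CCAAT box as CCAAT, and the E2F site as TTTCCCGC, TTTGGCGC, TTTCGCGC or TTTGCCGC, each on both strands. A CHR was found in 16 of the 20 mitotic windows (80.0%) and in 3 of 13 replication windows (23.1%), against 19.2% of all 32851 windows. All 16 also held a CCAAT box, and 7.52% of all windows held both. A CCAAT box was found in 18 of 20 mitotic windows (90.0%), 10 of 13 replication windows (76.9%) and 37.4% of all windows. An E2F match was found in 5 of 13 replication windows (38.5%) and in 1 of 20 mitotic windows, against 2.26% of all windows. Of the 7 called genes with a window, 3 held a CHR (Cdk1, Ube2c and Ccnb2), so calls were made on genes with and without these letters. A match is a description of letters and not a site shown to work.

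The windows of the 5 called mitotic genes are given 5′ to 3′ on the strand of the gene, because these genes carried the transgene result. Capitals mark matches to the CHR, CCAAT and E2F letters, read on either strand. The window of each starts 250 bases before the annotated start. In the mm10 gene annotation Birc5 spans chr11:117849251-117855743, Cdk1 chr10:69335146-69352938, Cenpe chr3:135212537-135273611, Ube2c chr2:164769898-164778822 and Ccnb2 chr9:70407692-70421547.
Birc5 (GRCm38.p6, chr11:117848987-117849286, plus strand): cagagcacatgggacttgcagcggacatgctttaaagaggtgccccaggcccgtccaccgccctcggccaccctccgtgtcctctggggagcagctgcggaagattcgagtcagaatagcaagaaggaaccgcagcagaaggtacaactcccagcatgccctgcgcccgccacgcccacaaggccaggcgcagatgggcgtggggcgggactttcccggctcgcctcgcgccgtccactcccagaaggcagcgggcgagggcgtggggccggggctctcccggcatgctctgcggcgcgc
Cdk1 (GRCm38.p6, chr10:69352863-69353162, minus strand): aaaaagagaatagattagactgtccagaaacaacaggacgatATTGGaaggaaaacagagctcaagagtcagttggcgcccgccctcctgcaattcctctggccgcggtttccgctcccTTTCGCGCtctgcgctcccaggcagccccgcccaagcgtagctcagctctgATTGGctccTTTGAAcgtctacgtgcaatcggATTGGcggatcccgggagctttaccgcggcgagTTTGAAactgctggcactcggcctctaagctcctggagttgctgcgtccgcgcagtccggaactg
Cenpe (GRCm38.p6, chr3:135212313-135212612, plus strand): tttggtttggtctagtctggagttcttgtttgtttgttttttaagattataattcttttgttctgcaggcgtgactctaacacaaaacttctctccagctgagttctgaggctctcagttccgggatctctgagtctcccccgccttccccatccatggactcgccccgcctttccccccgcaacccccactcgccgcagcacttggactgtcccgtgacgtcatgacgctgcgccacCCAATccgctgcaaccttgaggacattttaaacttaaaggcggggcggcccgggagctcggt
Ube2c (GRCm38.p6, chr2:164769679-164769978, plus strand): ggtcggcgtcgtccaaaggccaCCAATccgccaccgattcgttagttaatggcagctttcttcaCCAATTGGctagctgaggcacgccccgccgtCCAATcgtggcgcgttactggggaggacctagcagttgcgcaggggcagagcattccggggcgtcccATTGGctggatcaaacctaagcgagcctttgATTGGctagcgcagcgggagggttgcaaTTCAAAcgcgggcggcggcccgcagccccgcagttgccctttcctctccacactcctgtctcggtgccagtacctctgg
Ccnb2 (GRCm38.p6, chr9:70421505-70421804, minus strand): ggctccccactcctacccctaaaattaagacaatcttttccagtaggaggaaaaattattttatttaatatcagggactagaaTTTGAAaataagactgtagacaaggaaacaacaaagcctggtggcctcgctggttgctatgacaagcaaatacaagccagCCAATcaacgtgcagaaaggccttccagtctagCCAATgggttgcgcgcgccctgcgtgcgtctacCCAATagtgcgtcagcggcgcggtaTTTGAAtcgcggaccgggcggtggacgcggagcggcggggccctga

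Cdk1 held 2 CHR matches, starting 71 and 15 bases before its start, 3 CCAAT boxes and 1 E2F match. Ccnb2 held 2 CHR matches and 3 CCAAT boxes, which start 87, 54 and 21 bases before its start. Ube2c held 1 CHR match and 6 CCAAT matches, of which 1 pair shares bases on opposite strands. Cenpe held a single CCAAT box and Birc5 none of these letters.

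The other 20 mitotic genes were not called in the average by the unpaired edgeR fit with no covariate and the filter used here, though 11 of them passed with the pairs as blocks. With at least 10 counts in every library, that fit called Mki67, Top2a and Prc1. DESeq2 called 6 of them in the average comparison, Cdca8, Kif11, Mki67, Prc1, Top2a and Tpx2, all higher. The shares of all genes called in the average by this fit and by the fit with at least 10 counts are not given here. These member counts therefore cannot be set against a background. Top2a, the topoisomerase that untangles sister chromatids, stood at 13.6, 12.3, 12.5 and 14.2 CPM in WT, 12.01, 13.2, 13.9 and 34.7 CPM in Card9-/-, 42.2, 18.8, 24.6 and 18.1 CPM in 5xFAD and 19.4, 22.7, 15.8 and 48.5 CPM in Card9-/-5xFAD. Mki67, whose protein Ki-67 coats mitotic chromosomes and is a common marker of proliferation, stood at 8.63, 7.96, 9.27 and 9.52 CPM in WT, 7.81, 8.36, 6.58 and 17.3 CPM in Card9-/-, 24.3, 11.2, 13.5 and 9.81 CPM in 5xFAD and 14.0, 13.5, 8.69 and 20.0 CPM in Card9-/-5xFAD. Both genes were high in Card9-/- replicate 4, and apart from that library Top2a did not overlap between libraries with and without transgenes. The average log2 change was 0.76 ± 0.29 for Top2a (edgeR FDR 0.133) and 0.62 ± 0.26 for Mki67 (edgeR FDR 0.165). Both were called without Card9-/- replicate 4, with log2 changes of 0.99 for Top2a and 0.80 for Mki67, and without 5xFAD replicate 4, with changes of 0.97 and 0.84. With the pairs as blocks the average change was 0.71 for Top2a (edgeR FDR 0.00567) and 0.59 for Mki67 (edgeR FDR 0.0250).

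The remaining mitotic genes spread from near 0 to close to 1 on the log2 scale. In the average, Cdca3, a mitotic entry factor, had a change of 0.95 ± 0.44 (edgeR FDR 0.207), Prc1, which bundles spindle midzone microtubules, of 0.82 ± 0.33 (FDR 0.150) and the spindle motor Kif11 of 0.77 ± 0.29 (FDR 0.121). The checkpoint kinase Bub1 had a change of 0.76 ± 0.36 (FDR 0.217) and the spindle assembly factor Tpx2 of 0.71 ± 0.30 (FDR 0.165). The mitotic kinases Aurkb, Aurka and Plk1 had changes of 0.59, 0.57 and 0.46, and Foxm1, a transcription factor of many mitotic genes, of 0.52. Cyclin A2 (Ccna2), Cdca8, Nusap1 and Cenpf had changes of 0.47, 0.47, 0.36 and 0.30. Kif23 and Kif20a, kinesins of cytokinesis, and the checkpoint gene Bub1b had changes of 0.10, 0.089 and 0.00015, the smallest of this phase. Of the exon bases of Kif20a, 29.3% lie opposite exons of Cdc23. Of these genes, 8 (Cdca8, Bub1, Kif11, Prc1, Tpx2, Cdca3, Mki67 and Top2a) had an unadjusted p under 0.05 in edgeR. Of all 14513 genes tested, 1432 were higher and 1883 lower at that p.

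Among the DNA replication genes, only Tyms and Pcna were called in the average of the unpaired edgeR fit. Gins2 had a change of similar size without a call there, and the rest had no common direction. Tyms, which makes thymidylate for DNA synthesis, stood at 28.2, 27.0, 34.2 and 25.5 CPM in WT, 22.5, 21.9, 26.6 and 27.5 CPM in Card9-/-, 76.4, 47.7, 49.3 and 32.6 CPM in 5xFAD and 30.9, 39.2, 51.8 and 27.6 CPM in Card9-/-5xFAD. Pcna, the sliding clamp of the replication fork, stood at 87.5, 128, 148 and 115 CPM in WT, 95.2, 65.7, 126 and 134 CPM in Card9-/-, 230, 227, 222 and 147 CPM in 5xFAD and 155, 149, 242 and 87.3 CPM in Card9-/-5xFAD. For both genes, 5xFAD replicate 4 and Card9-/-5xFAD replicate 4 were among the transgene libraries that overlapped those without transgenes. The average was 1.65-fold for Tyms (95% CI 1.24 to 2.20, edgeR FDR 0.0346) and 1.61-fold for Pcna (1.15 to 2.26, edgeR FDR 0.0836). Pcna was called in 4 of the 16 fits that left out 1 library and lost in the other 12, and its log2 change over these fits was 0.55 to 0.92. The 4 were those without Card9-/- replicate 3, Card9-/- replicate 4, 5xFAD replicate 4 or Card9-/-5xFAD replicate 4. Tyms was called with the pairs as blocks in both Card9 genotypes (edgeR FDR 0.0443 and 0.0935) and Pcna in 5xFAD against WT (edgeR FDR 0.0829), with an average FDR of 0.0170 for Pcna.

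The genes of the replicative helicase did not follow Pcna. Of the 6 subunit genes Mcm2 to Mcm7, 5 had an average log2 change below 0, from -0.34 ± 0.31 for Mcm4 to -0.19 for Mcm3, and Mcm5 had a change of 0.16. Mcm6 stood at 12.3, 31.6, 28.2 and 29.4 CPM in WT, 33.4, 28.4, 32.7 and 18.3 CPM in Card9-/-, 10.01, 25.6, 14.2 and 40.3 CPM in 5xFAD and 33.5, 38.3, 12.3 and 11.2 CPM in Card9-/-5xFAD. Low and high libraries occurred in every genotype, and the change was -0.20 ± 0.33 (edgeR FDR 0.751). Rrm1 and Rrm2, the subunits of ribonucleotide reductase, had changes of -0.23 and 0.087, Tk1, a thymidine kinase, of 0.28 and Gins2, a helicase cofactor, of 0.67 ± 0.30 (FDR 0.192). Of the exon bases of Gins2, 67.3% lie opposite exons of Gse1. Cdc45, Cdc6 and Uhrf1 had changes of 0.0015, -0.26 and 0.14.

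The 4 G1/S genes did not pass in the unpaired edgeR fit or in DESeq2 with all 16 libraries, and the lowest unadjusted p of the average comparison was 0.0605, for Ccne1. A fit with a surrogate variable called Ccne1 and E2f1, and the fit with pairs as blocks called Ccne1, at 0.92 ± 0.35 (edgeR FDR 0.0623). Without the 3 neutrophil-rich libraries 0 of the 4 were called in the average in edgeR, with 1, Ccne1, at an unadjusted p under 0.05, and Ccne1 was called in Card9-/-5xFAD against Card9-/-, at 1.39 ± 0.45 (edgeR FDR 0.0825). Ccnd1, encoding cyclin D1, stood at 69.2, 169, 145 and 76.3 CPM in WT, 63.9, 99.2, 148 and 88.7 CPM in Card9-/-, 117, 173, 159 and 76.4 CPM in 5xFAD and 54.7, 77.8, 172 and 35.6 CPM in Card9-/-5xFAD. Each genotype spanned much of the whole range, and the average log2 change was -0.020 ± 0.32 (edgeR FDR 0.978), with a sign that differed between settings. E2f1 had a change of 0.50 ± 0.31, Ccne1 of 0.82 ± 0.41 and Ccne2 of -0.10 ± 0.35. Of the exon bases of Ccnd1, 23.4% lie opposite exons of LTO1. The E type cyclins Ccne1 and Ccne2 were counted at 0.176 to 2.88 CPM and 1.23 to 7.20 CPM, too low for small changes to be seen at this depth.

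Stmn1 and Hmgb2 differed from each other. Stmn1, or stathmin, takes microtubules apart and stood at 176, 113, 110 and 68.3 CPM in WT, 55.7, 41.7, 71.2 and 65.8 CPM in Card9-/-, 428, 241, 238 and 136 CPM in 5xFAD and 99.3, 132, 205 and 189 CPM in Card9-/-5xFAD. Its levels separated Card9-/-5xFAD from Card9-/- without overlap, with a 2.67-fold change (95% CI 1.53 to 4.64, edgeR FDR 0.0924), and the change in 5xFAD against WT was 2.23-fold (1.29 to 3.86, edgeR FDR 0.207). The latter was called with the pairs as blocks, at a log2 change of 1.12 ± 0.18 (edgeR FDR 0.00201). The average was 2.44-fold (1.65 to 3.60, edgeR FDR 0.00799). Hmgb2, a chromatin protein, stood at 329, 112, 140 and 90.9 CPM in WT, 60.5, 45.5, 91.7 and 858 CPM in Card9-/-, 350, 168, 178 and 96.02 CPM in 5xFAD and 71.2, 96.4, 198 and 560 CPM in Card9-/-5xFAD. The 3 libraries with the highest neutrophil sum were among its 4 highest, and the average log2 change was 0.025 ± 0.60 (edgeR FDR 0.986).

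Several members were high in the Card9-/- and Card9-/-5xFAD libraries of highest neutrophil sum, and Hmgb2, Top2a and Mki67 are plotted against that sum with Cdk1. Summed over its 7 genes, the neutrophil list stood at 1016 to 3596 CPM in WT, 936 to 6278 CPM in Card9-/-, 747 to 2097 CPM in 5xFAD and 488 to 5966 CPM in Card9-/-5xFAD. All 7 markers were counted in all 16 libraries, with Ly6g at 0.869 to 7.94 CPM. Replicate 4 was the highest of its genotype in both Card9-/- and Card9-/-5xFAD for Hmgb2, Top2a, Mki67, Cenpf and Cdca3. For Cdca3 it stood at 28.1 CPM in Card9-/-, against 3.10 to 5.10 CPM in the other 3, and at 26.8 CPM in Card9-/-5xFAD, against 5.72 to 10.8 CPM. Cdk1, Ube2c and Ccnb1 were lowest in replicate 4 of both genotypes. In WT replicate 1, the third library with a high sum, Hmgb2 and Cenpf were highest of the genotype. Top2a and Mki67 lay within the range of the other WT libraries there. The part of neutrophils in these levels was not tested beyond the fits that follow.

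**Figure D4:**
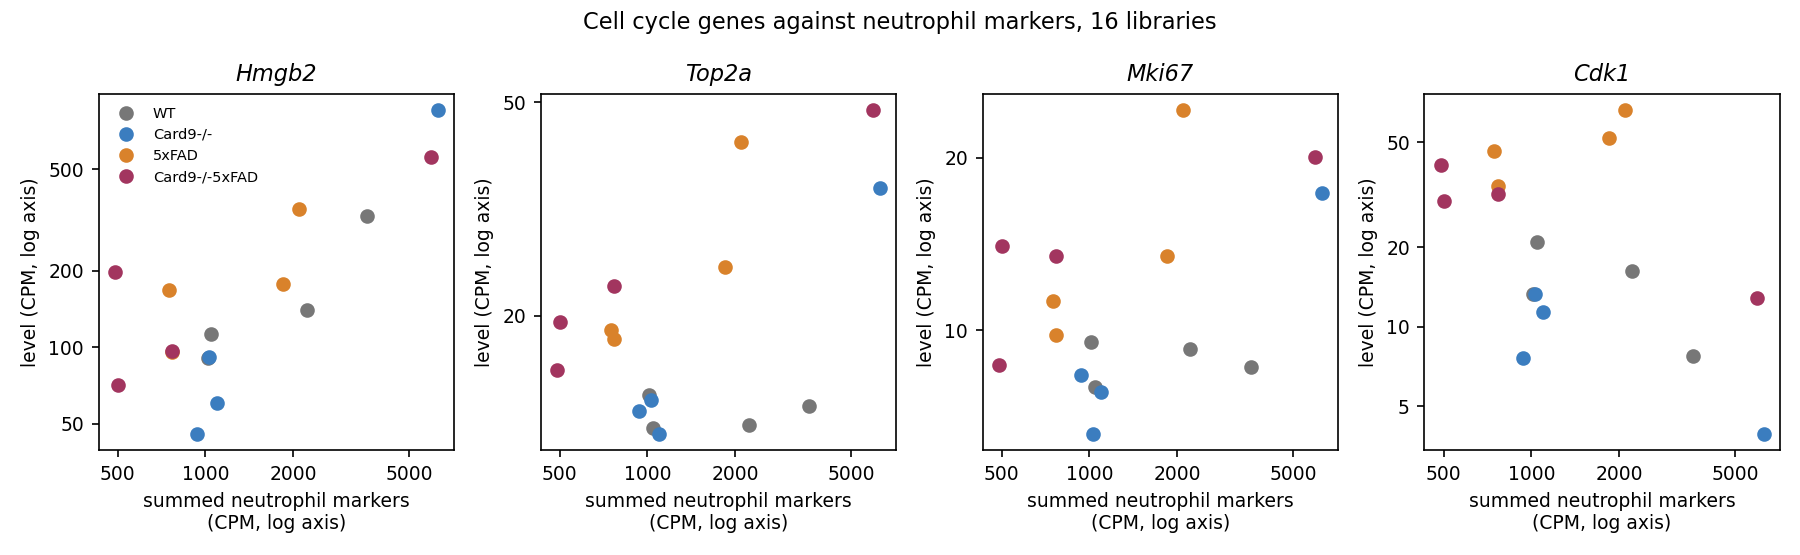
Level (CPM) of Hmgb2, Top2a, Mki67 and Cdk1 against the summed level of 7 neutrophil markers (CPM) in the 16 libraries, both on log axes, with colors for genotype. The libraries at 6278 and 5966 CPM of neutrophil markers have the highest Hmgb2, 858 and 560 CPM, while their Cdk1, 3.93 and 12.8 CPM, is the lowest of their genotypes.

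Without the 3 libraries of highest neutrophil markers, 19 of the 46 genes were called in the average transgene comparison, all higher, where 18.3% of all genes were called higher. These were the 8 above together with Gins2, Ccnb1, Cdca8, Bub1, Kif11, Prc1, Tpx2, Cdca3, Mki67, Top2a and Hmgb2, or 14 of the 25 mitotic genes, 3 of the 15 replication genes, and both Stmn1 and Hmgb2. Top2a then stood at 12.01 to 14.2 CPM in the 6 libraries without and at 15.8 to 42.2 CPM in the 7 with transgenes. The log2 change was 0.81 ± 0.21 for Top2a, 0.73 ± 0.23 for Mki67, 0.87 ± 0.31 for Hmgb2 and 1.29 ± 0.26 for Cdca3. Among the 8 genes already called, it was 1.64 ± 0.21 for Cdk1, 1.42 ± 0.27 for Birc5, 1.28 for Cenpe, 1.34 for Ube2c, 1.10 for Ccnb2, 1.43 for Stmn1, 0.84 for Tyms and 0.83 for Pcna. With all 16 libraries and the log2 sum of the neutrophil markers as a covariate, 18 genes were called higher and 1, Mcm4, lower (-0.53 ± 0.23), with 16.4% of all genes called higher. Within Card9 genotypes, the fit without the 3 libraries called 9 members in 5xFAD against WT, where 8.74% of all genes were called higher, and 7 in Card9-/-5xFAD against Card9-/-, where 6.73% were. All of these were higher.

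Loss of Card9 was compared in both backgrounds. In Card9-/-5xFAD against 5xFAD, edgeR called 0 of the 46 genes and 0% of all 14513, with 366 genes at an unadjusted p under 0.05. DESeq2 called 0 members and 2 genes in all. Ube2c had a log2 change of -1.03 ± 0.38 (0.490-fold, 95% CI 0.279 to 0.862, edgeR FDR 0.993) and Birc5 of -0.83 ± 0.34 (0.563-fold, 0.343 to 0.923, edgeR FDR 0.993). These were the only members with an unadjusted p under 0.05. For Cdk1 the fold was 0.586 (0.324 to 1.06) and for Cenpe 0.744 (0.462 to 1.199), intervals that hold no change as well as the folds of Ube2c and Birc5. For Mki67 the fold was 0.950 (0.557 to 1.62) and for Top2a 1.02 (0.558 to 1.85). No member separated both groups, against 1.89% of all genes. The mitotic genes had a median change of -0.21 with 9 of 25 above 0, against a median of 0.14 over all genes. Both groups also enter the transgene comparisons, so these values are not independent of those above.

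In Card9-/- against WT, edgeR called 0 of the 46 genes and 0% of all genes, with 597 genes at an unadjusted p under 0.05, and DESeq2 called 0 members and 5 genes in all. The members with an unadjusted p under 0.05 were Stmn1, at -0.997 ± 0.37 (0.501-fold, 95% CI 0.290 to 0.866, edgeR FDR 0.970), and Ccne1, at -1.41 ± 0.58 (edgeR FDR 0.970). The mitotic genes had a median change of -0.034 with 11 of 25 above 0. No member separated the groups, against 2.66% of all genes. Without the 3 neutrophil-rich libraries, edgeR called 0 members in both Card9 comparisons, with 5 members at an unadjusted p under 0.05 in Card9-/-5xFAD against 5xFAD and 2 in Card9-/- against WT. The same counts over all genes are not given here for that fit.

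The interaction asked whether the transgene change differed between Card9 genotypes. It called 0 members and 0% of all genes in edgeR, with 78 genes and 0 members at an unadjusted p under 0.05, and DESeq2 called 0 members and 1 gene. The interaction on the log2 scale ranged from -1.11 for Cdca3 to 1.04 for Ccne1 over the members, and was -0.35 ± 0.54 for Ube2c. Its error is larger than that of either transgene comparison, so a moderate difference was not detectable here. With the pairs as blocks, 0 members and 0 genes in all were called, with 206 genes and 0 members at an unadjusted p under 0.05.

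Further genes of the pathway were counted from lists. Of 31 other replication genes tested, 5 were called in the average transgene comparison, all higher: Clspn (1.398), Gins1 (0.93), Gmnn (0.76), Dut (0.76) and Tipin (0.67), given as log2 changes. Of 55 other mitotic genes, 11 were higher and 2 lower. The higher were Gas2l3, Cdkn3, Cenpm, Mxd3, Spc24, Cks1b, Dlgap5, Cenpk, Hmmr, Lmnb1 and Nuf2, with log2 changes of 0.95 for Nuf2 to 2.36 for Gas2l3, a linker of actin and microtubules. The lower were Espl1, the protease that cuts cohesin, at -0.91 ± 0.18 (edgeR FDR 0.00597), and the condensin gene Ncaph, at -0.72 ± 0.22 (edgeR FDR 0.0589). The medians were 0.32 for the replication list and 0.49 for the mitotic list, against -0.15 over all genes. Of all genes tested, 5.62% were called higher and 5.73% lower in this comparison. Without the 3 neutrophil-rich libraries, 9 of 33 replication genes were called, all higher, and of 57 mitotic genes 23 were higher and 3, Espl1, Ncaph and Hjurp, lower, against 18.3% of all genes higher and 14.7% lower. With the pairs as blocks, 12 of the 31 replication genes were higher, and of the 55 mitotic genes 22 were higher and 2, Espl1 and Ncaph, lower. That fit called 18.1% of all genes higher and 3448 of 14513 lower. Without pairing, Gas2l3 was called in both Card9 genotypes (2.38 ± 0.39 and 2.34 ± 0.39, edgeR FDR 0.00362 and 0.00399).

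Genes that start the cycle or hold it back were examined next. Among 13 G1 cyclin and CDK genes the lowest FDR in edgeR was 0.174, for Ccnd3 at -0.52 ± 0.22, followed by Ccnd2 at -0.97 ± 0.44 (FDR 0.200). The cyclin D partners Cdk4 and Cdk6 had changes of 0.34 ± 0.37 and 0.19 ± 0.20. Of all genes, the fit without the 3 neutrophil-rich libraries called 18.3% higher and 14.7% lower. The covariate fit called 16.4% higher and 2756 of 14513 lower. With the pairs as blocks, 18.1% were higher and 3448 of 14513 lower. These shares apply to each list of this paragraph. Those fits also made calls among the G1 genes. Without the 3 neutrophil-rich libraries, Mnat1 was higher (0.79 ± 0.31, edgeR FDR 0.0768) and Skp2, which marks the inhibitor p27 for destruction, lower (-0.64 ± 0.19, edgeR FDR 0.0290). The covariate fit called Mnat1 higher and Skp2 and Cdk2 lower. With the pairs as blocks, Cdk4 and Mnat1 were higher, and Ccnd2 (-0.90 ± 0.16, edgeR FDR 0.00141), Ccnd3, E2f3, Cdk2 and Skp2 lower. Of 27 genes on a list of brakes and their regulators, Cdkn2c, an inhibitor of the cyclin D kinases, was called, at 0.83 ± 0.21 (edgeR FDR 0.0293). Of all genes, 5.62% were called higher there. Without the 3 libraries, 4 genes of this list were higher, Cdkn2c, Cdkn1a (1.05 ± 0.28, edgeR FDR 0.0160), Gadd45a and Gadd45b, and 2 lower, Mdm2 and Ccng2. Mdm2 is on the list as a regulator and is not itself a brake. The covariate fit called 3 higher (Cdkn2c, Cdkn1a and Gadd45a) and 4 lower (Mdm2, Ccng2, E2f4 and Fzr1). With the pairs as blocks, these 3 and Gadd45b were higher, and those 4 and Btg1 lower. In the unpaired fit of all 16 libraries, Cdkn1a had a change of 0.73 ± 0.34 (edgeR FDR 0.217), Cdkn1b of -0.24 ± 0.31 and Rb1 of -0.17 ± 0.16, and Cdkn2a did not pass the filter on low counts. Of 8 genes of growth signaling through CSF1 and related factors, 3 were called, Csf1 at 3.06 ± 0.35, Igf1 at 3.34 ± 0.27 and Csf2ra at 0.89 ± 0.20. The same 3 were called higher without the 3 neutrophil-rich libraries (3.702, 3.54 and 0.93) and with the pairs as blocks, where Tgfb1 was also called, lower (-0.39 ± 0.15). The receptor Csf1r, on which microglia depend, had a change of -0.33 ± 0.36 (edgeR FDR 0.624).

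Markers of other cells that could carry these genes were followed in the same libraries. Oligodendrocyte precursor markers summed to 0 to 1.64 CPM without and 3.60 to 17.98 CPM with transgenes, and this was Cspg4 (0 to 0.428 and 2.80 to 17.7 CPM), since Pdgfra, Olig1, Olig2, Sox10 and Gpr17 stayed under 1 CPM in every library, and Olig2 and Gpr17 at 0 in 13 of 16. The 5 neural progenitor markers summed to 2.96 to 16.7 CPM and 6.67 to 20.4 CPM, mostly Nes, with Dcx at 0 in 14 of 16. T and NK cell markers summed to 30.7 to 245 CPM and 14.9 to 103 CPM, mostly Nkg7 and Cd4, with the T cell gene Cd3e at 0 in 12 libraries. B cell markers summed to 392 to 1150 CPM and 392 to 1049 CPM, mostly Ighm, with Ms4a1 at 0 in 7 libraries. Monocyte markers summed to 133 to 385 CPM without and 67.8 to 222 CPM with transgenes, and border macrophage markers to 667 to 1585 CPM and 315 to 1418 CPM, with Lyve1 at 43.1 to 71.5 CPM and 13.8 to 39.8 CPM. Astrocyte markers summed to 174 to 317 CPM and 151 to 256 CPM, mostly Slc1a3, while Gfap stood at 0.221 to 3.36 CPM without and 3.60 to 19.1 CPM with transgenes. Endothelial markers summed to 32.7 to 143 CPM and 33.4 to 85.7 CPM, with Pecam1 at 27.3 to 43.0 CPM and 6.12 to 20.97 CPM. Flt1 leaned the other way, at 2.90 to 65.1 CPM without and 16.9 to 45.2 CPM with transgenes. Apart from WT replicate 1 (32.9 CPM) and Card9-/- replicate 4 (65.1 CPM), it was lower in every library without transgenes than in any with them. Lyve1, Gfap and Pecam1 thus separated the libraries with transgenes from those without, Gfap higher and the others lower. The other astrocyte, endothelial and border macrophage markers overlapped, so these genes do not stand for their lists. Slc1a3, for example, stood at 165 to 311 CPM without and 139 to 245 CPM with transgenes. No endothelial, astrocyte or border macrophage marker was at 0 in any library. The part of these cells in the levels of the cell cycle genes was not tested.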

How the data were processed

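CD11b+ cells had been isolated from brain with magnetic beads after the meninges and choroid plexus were removed. The authors aligned reads to mm10 with HISAT2, handled alignments with SAMtools and counted reads per gene with HTSeq; tool versions and the strand setting are not given in the sources used here. The deposited values are raw read counts per gene, and all 16 columns were matched to labels by name. Counts were tested as deposited in edgeR 4.0.16 (R 4.3.3) with TMM scaling, a filter at a minimum count of 10 (filterByExpr), a quasi-likelihood fit over all 4 genotypes with 12 residual degrees of freedom, and Benjamini-Hochberg adjustment over all genes tested, at an FDR of 0.1. CPM used TMM library sizes, and SDs and intervals (95%) are over libraries. The labels number the replicates but do not tie each to a mouse, so p-values measure the spread between these libraries. Libraries of the same number were checked for pairing by the correlation, over genes, of their deviations from the genotype means. It was 0.275 to 0.708 in the 4 pairs of WT and 5xFAD and 0.128 to 0.734 in the 4 pairs of Card9-/- and Card9-/-5xFAD, over 0.1 in all, but only in 2 of 4 pairs in each Card9 comparison. Libraries of unlike number were not compared in this way, so these correlations cannot show pairing. The transgene comparisons were also fitted with 8 blocks, 1 per pair, and 6 residual degrees of freedom. All members are named, with full statistics for those called in any comparison and for Mki67, Top2a, Ccnd1, Pcna and Mcm6, and other lists name the genes called and a few fixed regulators. Some cell type markers are not reported here and were left out of the marker sums. The members and all lists were chosen with earlier results of these data known. Alternatives used DESeq2 1.42.0, sva 3.50.0 and limma 3.58.1, other filters and scaling, a replicate block and leaving out each library. Total counts ranged from 2970148 to 19333325 per library, which sets the counting error of low genes.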

Additional observations from a re-analysis of the deposited data

Results flagged for a closer look

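Single libraries that lay far from the other 3 of their genotype by Dixon's test numbered 19 among 200 groups of 4 values examined, where chance gives about 1 in 20. Of these, 7 fell in Card9-/- replicate 4, 4 in WT replicate 1 and 4 in 5xFAD replicate 4, and the other 4 in 4 more libraries.

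Card9-/- replicate 4, the library with the highest neutrophil sum, was high for Hmgb2 at 858 CPM (45.5 to 91.7 CPM in the others), for Stmn1 and Hmgb2 summed at 924 CPM (87.2 to 163 CPM), for Top2a at 34.7 CPM (12.01 to 13.9 CPM), for Cdca3 at 28.1 CPM (3.10 to 5.10 CPM), for Mki67 at 17.3 CPM (6.58 to 8.36 CPM) and for Ccne2 at 7.20 CPM (2.16 to 2.69 CPM). It was low for Ccna2 at 2.62 CPM (4.63 to 4.98 CPM). WT replicate 1, also with a high neutrophil sum, was high for Cenpf at 22.7 CPM (13.9 to 14.6 CPM). It was low for E2f1 at 2.11 CPM (5.65 to 5.85 CPM), Plk1 at 0.704 CPM (3.64 to 4.11 CPM) and Cdc45 at 0.176 CPM (3.94 to 4.63 CPM).

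5xFAD replicate 4 was low for Pcna at 147 CPM (222 to 230 CPM) and high for Mcm4 at 22.6 CPM (10.47 to 12.1 CPM), Foxm1 at 3.54 CPM (0.822 to 1.08 CPM) and Cdc6 at 1.498 CPM (1.06 to 1.10 CPM). Cdc45 was high in 5xFAD replicate 2 at 6.17 CPM (2.27 to 2.88 CPM) and low in Card9-/-5xFAD replicate 4 at 0.801 CPM (2.78 to 3.16 CPM). Uhrf1 was low in Card9-/-5xFAD replicate 3 at 1.39 CPM (5.61 to 6.28 CPM). The summed replication genes were high in Card9-/- replicate 3 at 420 CPM (338 to 344 CPM).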

How the results depend on the processing

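Depth limits the low members: Cdk1 rested on 12 reads in Card9-/- replicate 4. The fits without the 3 neutrophil-rich libraries and with the neutrophil covariate were chosen after seeing the data. Values are given in the order 5xFAD against WT (first), then Card9-/-5xFAD with Card9-/- (second), then the average. For the 5 mitotic genes called in the average (Birc5, Cenpe, Cdk1, Ube2c and Ccnb2), Stmn1, Tyms and Pcna, no change turned direction in these 3 comparisons under any alternative run. Where a number of calls moved, the cause was not tested.

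Members called, against 4, 4 and 8, came to 0 in the second at an FDR of 0.05, to 2, 0 and 6 without a filter, to 2, 2 and 9 with at least 10 counts in every library, to 6, 5 and 14 with DESeq2, to 14, 7 and 23 with 1 surrogate variable, to 9, 7 and 19 without the 3 libraries and to 10, 10 and 19 with the covariate. On only the groups compared, edgeR called 5 and 0 and DESeq2 7 and 5. All genes called, against 304, 286 and 1647, came to 162 and 920 in the second and the average at an FDR of 0.05, to 185 and 1070 there without a filter, to 171 and 148 in the first and second when every library had to hold at least 10 counts, and to 565 and 812 there with DESeq2. They came to 2029, 2479 and 5678 with the surrogate variable, to 1864, 1494 and 4776 without the 3 libraries and to 1312, 2067 and 5139 with the covariate. On only the groups compared, edgeR called 96 in the second, and DESeq2 669 and 433. The calls in the Card9 comparisons and the interaction stayed at 0 members. All genes called in Card9-/-5xFAD against 5xFAD came to 1 without a filter, 2 with DESeq2, 9 with DESeq2 on those groups and 1 with the surrogate variable. In Card9-/- against WT they came to 2, 5, 8 and 11 under the same settings and 1 with the covariate, and in the interaction to 1 with DESeq2.

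Leaving out 1 library gave 0 to 6, 0 to 6 and 7 to 15 members called, and 164 to 386, 120 to 720 and 955 to 3053 genes in all. It gave 0 to 1 genes in all in Card9-/-5xFAD against 5xFAD, in Card9-/- against WT and in the interaction. The sums by phase moved by less than the SD between libraries, except that of the replication genes in 5xFAD, 462 CPM, which came to 420 CPM on unscaled totals.

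Small changes turned direction. The average change of Ccnd1, -0.020, came to 0.059 with DESeq2 size factors, 0.16 with at least 10 counts in every library, 0.051 with DESeq2, 0.018 with the surrogate variable and 0.019 without the 3 libraries. In Card9-/-5xFAD against 5xFAD, Mki67, -0.074, came to 0.029 with the covariate, and Mcm6, 0.092, to -0.028 with at least 10 counts. There Top2a, 0.024, came to -0.032 with DESeq2 size factors, -0.055 without a filter, -0.10 with at least 10 counts, -0.038 with DESeq2, -0.023 with edgeR and -0.045 with DESeq2 on these groups alone, -0.096 with the replicate block, -0.021 with the surrogate variable and -0.43 without the 3 libraries. In Card9-/- against WT, Mki67, 0.15, came to -0.23 without the 3 libraries. Leaving out 1 library gave Ccnd1 -0.83 to 0.025 in Card9-/-5xFAD against Card9-/-, -0.32 to 0.25 in the average and -0.47 to 0.044 in Card9-/- against WT. It gave Mcm6 -0.43 to 0.075 in 5xFAD against WT. In Card9-/- against WT it gave Mcm6 -0.074 to 0.31, Mki67 -0.22 to 0.30 and Top2a -0.0067 to 0.62, and in Card9-/-5xFAD against 5xFAD it gave Mcm6 -0.24 to 0.34, Mki67 -0.38 to 0.27 and Top2a -0.42 to 0.35. Apart from leaving out single libraries, 525 alternative values of the genes given in full kept their direction and their side of the threshold, 47 newly passed it and 13 no longer passed, all with their direction.

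With the replicate block within each Card9 genotype, chosen after seeing the data, 13, 7 and 21 members and 2322, 2966 and 6078 genes in all were called, and 0 in the interaction. A single replicate block over all 4 genotypes, as planned, called 4, 5 and 8 members, with Ube2c added in the second, and 0 in the Card9 comparisons and the interaction. Across Card9 genotypes, libraries of the same number had correlations of both signs. Neither block changed another call among the genes given in full beyond those named in the report.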
